A study of Rattus norvegicus with 28 samples.

Results

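The 8 h response of wild-type INS-1 cells to exendin-4 (Ex-4) was measured by bulk RNA-seq. INS-1 is a rat insulinoma line, and Ex-4 is a peptide that activates the GLP-1 receptor. The comparison used 4 of the 28 libraries of the series, namely the 2 WT libraries taken after 8 h in 10 nM Ex-4 and the 2 WT control (CON) libraries. The other libraries were WT cells after 1 or 16 h of Ex-4 or after 10 µM forskolin (FSK), and cells with the Med14 S983A substitution under the same conditions, with 2 libraries in each of 14 groups. All cells were washed and moved to serum-free medium before treatment, and neither CON group received Ex-4 or FSK. A single CON group per genotype stood beside all times, and the hour of its harvest was not given in the sources used here, so the time spent in serum-free medium and the time in Ex-4 cannot be told apart. The Med14 S983A cells were CRISPR knock-in lines, and the study made 2 such lines independently. Which of them gave which library was not given in the sources used here.

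The GLP-1 receptor couples to Gs and adenylyl cyclase, and the resulting cAMP activates protein kinase A (PKA). PKA phosphorylates CREB, a transcription factor that binds cAMP response elements (CREs) and recruits CRTC and CBP coactivators. Among the classical CREB targets are phosphodiesterases, kinases and repressors that limit the same pathway, and in beta cells the pathway is known for amplifying glucose-stimulated insulin secretion. Med14 is the backbone subunit of Mediator, the complex through which transcription factors contact RNA polymerase II.

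The 4 libraries held 38542741 to 46258930 fragments, and the CON and 8 h replicates correlated across genes with r = 0.9987 and r = 0.9985 on the log2 scale. Of 17455 gene symbols, 10275 averaged 1 TPM or more (TPM is a length-corrected share of a library's transcripts) across the 28 libraries and were tested with limma on log2(TPM + 1). A gene was called when its adjusted p was under 0.05 and its change exceeded 1.5-fold. The labels do not say that replicates came from separate cultures, so the p-values measure only the spread between these libraries. ERCC spike-in RNA took 0.953% and 1.05% of the fragments in CON and 0.951% and 0.889% after 8 h. The median gene changed by -0.10 in TPM, by 0.02 after median-centring and by 0.04 after ERCC scaling, all on the log2 scale, and the changes given below are in TPM, without correction for that shift. Beta cell markers led over those of other pancreatic cells. The summed level of 9 beta cell markers was 45363 to 46170 TPM in CON and 56721 to 58393 TPM after 8 h. Most of that sum was Ins1, at a mean of 34108.5 TPM in CON and 46265.6 TPM after 8 h, so it says little of the other markers. None of the 8 markers that were tested was called. Each delta and PP cell, leukocyte and fibroblast marker was under 1 TPM in all 4 libraries, and of 7 acinar markers only Ctrb1 passed 1 TPM, at a mean of 5.23 TPM in CON. The duct marker Sox9 averaged 1.51 TPM in CON and 0.96 TPM after 8 h.

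After 8 h of Ex-4, 371 genes were higher and 615 were lower than in CON, which is 3.61% and 5.99% of the genes tested and 9.6% together. Scaling moved that split. Median-centring gave 517 higher and 373 lower, and ERCC scaling gave 539 higher and 348 lower, and all 371 genes called higher in TPM stayed in both. The changes were moderate for most genes. Of the called genes, 121 rose and 119 fell by more than 2-fold, and 21 rose and 6 fell by more than 4-fold. Genes that rose were less abundant in CON, with a median of 11.9 TPM, than genes that fell, with a median of 17.7 TPM, while the median of all genes tested was 30.0 TPM. The CON level enters the change by which these genes were sorted, so the order of the first 2 medians is partly built in.

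**Figure D1:**
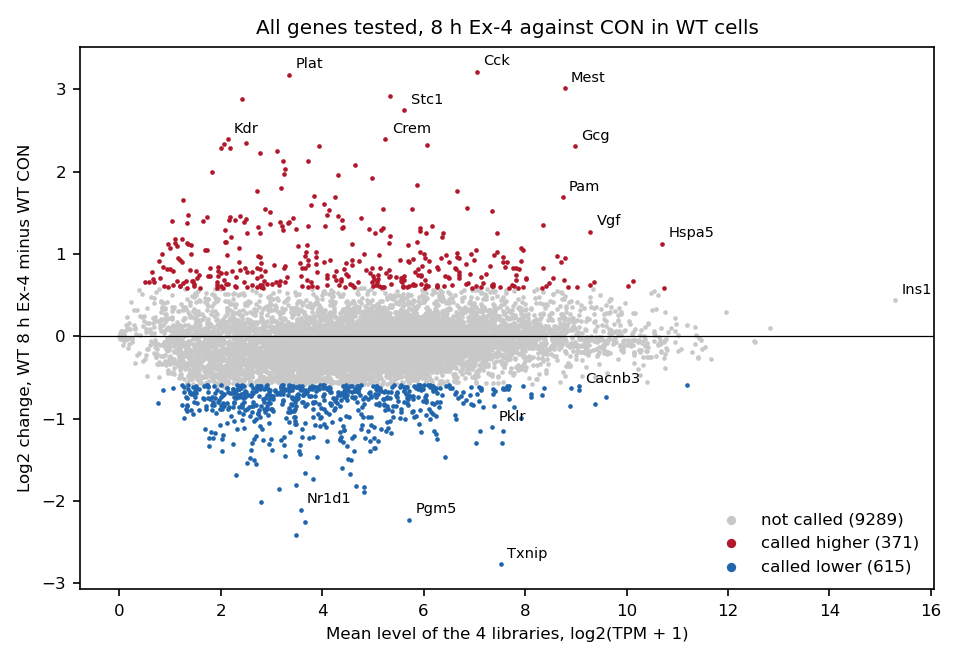
Log2 change from WT CON to WT 8 h Ex-4 against the mean level of the 4 libraries, log2(TPM + 1), for the 10275 genes tested, with 371 called higher in red and 615 called lower in blue. Cck and Plat lie at the top, Txnip at the bottom, and Ins1 lies far to the right, at a change of 0.44.

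Several of the largest rises were in genes of secreted proteins. Cck, the precursor of cholecystokinin (chr8:130120525-130127109 in rn6), was at 24.1 and 25.5 TPM in CON and 236 and 242 TPM after 8 h. That is a 9.30-fold rise, with a log2 change of 3.22 ± 0.05 (SE) and a limma adjusted p of 3.3e-24, and both treated libraries lay far above both controls. Plat, which encodes tissue plasminogen activator (chr16:74098268-74122858), went from 0.955 and 1.08 TPM to 16.4 and 18.2 TPM, a log2 change of 3.18 ± 0.09 (SE). Mest, an imprinted gene for a protein of the hydrolase fold (chr4:58052786-58063231), was measured at 97.0 and 94.9 TPM in CON and 770.1 and 792 TPM after 8 h, with a log2 change of 3.01 ± 0.05 (SE). The replicates differed by little beside these gaps.

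Cartpt, the precursor of the CART peptides (chr2:30125249-30127269), rose from 7.71 and 9.07 TPM to 71.1 and 69.3 TPM, which is 7.61-fold. Stc1, which encodes the secreted glycoprotein stanniocalcin-1, was at 11.5 and 11.96 TPM in CON and 82.1 and 87.0 TPM after 8 h, 6.71-fold higher. Gcg, the proglucagon gene that alpha cells use for glucagon and intestinal L cells for GLP-1 (chr3:48442635-48451650), stood at 165 and 169 TPM in CON and 758 and 918 TPM after 8 h, and its log2 change was 2.31 ± 0.07 (SE). The Gcg libraries did not overlap, but the alpha cell markers Irx1, Irx2 and Ttr were under 1 TPM in all 4 libraries, with Irx2 at 0 in all 4. In bulk RNA, a change in the number of cells of a type and a change in RNA per cell cannot be told apart.

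The other large rises were in genes of signalling and vesicles. Tmem163, a zinc-binding protein of vesicle membranes, was at 20.6 and 21.6 TPM in CON and 109.6 and 111 TPM after 8 h. Crem, the CREM repressor gene, was at 11.7 and 10.6 TPM in CON and 61.6 and 64.0 TPM after 8 h. Fyb1, an adaptor protein known from T cells, was at 4.30 and 3.92 TPM in CON and 24.1 and 24.6 TPM after 8 h. In each of these the treated libraries lay far above the controls, with folds on the log2(TPM + 1) scale of 5.03-fold, 5.26-fold and 4.97-fold. Sv2c (a synaptic vesicle glycoprotein), Fst (follistatin, which binds activins) and Gprc5a (an orphan receptor) were under 1 TPM in both CON libraries. Their 8 h values were 7.03 and 4.93 TPM, 5.63 and 5.75 TPM and 6.37 and 6.74 TPM respectively, and none of these groups overlapped.

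Some secreted peptide genes rose, as did the gene of the enzyme that amidates them. Of 20 granins and secreted peptides, 12 were tested, of which 6 were called higher (Cck, Nmu, Cartpt, Gast, Tac1 and Vgf) and 1 lower (Scg2), with a median log2 change of 0.85 against -0.10 for all genes. The others were under the filter. Nmu, the neuromedin U precursor, was at 0.123 and 0.452 TPM in CON and 8.16 and 8.68 TPM after 8 h, with both CON libraries under 1 TPM. Gast, the gastrin gene, was at 7.27 and 6.86 TPM in CON and 24.8 and 22.3 TPM after 8 h, and its log2 change was 1.61 ± 0.06 (SE). Tac1, the substance P precursor, was at 8.40 and 7.62 TPM in CON and 27.6 and 22.9 TPM after 8 h.

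The granins themselves moved less. Vgf, whose product is cut to several neuroendocrine peptides, went from 367 and 359.7 TPM to 861 and 899 TPM, with a log2 change of 1.27 ± 0.07 (SE) and a limma adjusted p of 6.0e-14. Chgb, a granule matrix protein, was at 1360.3 and 1341 TPM in CON and 1672 and 1728 TPM after 8 h, short of the fold threshold. Chga, the most abundant granin, was at 5978 and 5872 TPM in CON and 5782 and 5594 TPM after 8 h, with a log2 change of -0.06 ± 0.04 (SE) whose sign turned under ERCC scaling and median-centring. Scg2, the secretogranin II gene, was lower, at 581 and 575 TPM in CON and 367 and 382 TPM after 8 h, but was not called under either of those scalings. Pam, the monooxygenase that gives peptides such as cholecystokinin, gastrin and neuromedin U their C-terminal amide (chr9:111028693-111177578), was at 207 and 195 TPM in CON and 636 and 668 TPM after 8 h. Its log2 change was 1.69 ± 0.05 (SE), and it was the only called gene of the 11 tested for insulin and proinsulin processing, whose median change was 0.11.

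The letters of CREB binding sites were searched in RefSeq promoters (GRCr8), from 250 bases before to 50 bases after each start, on both strands. The full CRE TGACGTCA was found in 3.35% of the 8201 tested genes that had a promoter entry, in 4.33% of 277 genes called higher and in 2.11% of 475 called lower. Its 5-base core TGACG, which every full CRE also holds, was found in 33.6%, 40.4% and 21.9% of the same genes. The shares over all 27457 promoters were 1.91% for the CRE and 21.96% for the core. The AP-1 letters TGANTCA stood in 4.48% of tested, 6.86% of higher and 2.74% of lower genes. These are descriptions of the letters near the start, with no test, and enhancers lie outside these windows.

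The stretches below show the CRE letters, in capitals, in 2 of the peptide genes that rose and 2 CREB feedback genes. Each is 90 bases, 5′ to 3′ on the gene's strand, from RefSeq on GRCr8, where Cartpt is chr2:32991355-32991444 (- strand), Vgf chr12:25277088-25277177 (- strand), Nr4a1 chr7:134260015-134260104 (+ strand) and Pde10a chr1:54765753-54765842 (- strand). The CRE of Cartpt begins 142 bases and that of Vgf 90 bases upstream of the start. Nr4a1 holds the core, here on the opposite strand as CGTCA, 82 and 53 bases upstream, and Pde10a 104 bases upstream.
Cartpt: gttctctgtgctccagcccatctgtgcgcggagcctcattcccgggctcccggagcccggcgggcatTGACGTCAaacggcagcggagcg
Vgf: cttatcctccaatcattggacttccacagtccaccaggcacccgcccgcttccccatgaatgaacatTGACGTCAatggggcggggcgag
Nr4a1: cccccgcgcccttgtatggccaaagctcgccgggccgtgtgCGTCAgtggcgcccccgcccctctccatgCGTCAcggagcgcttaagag
Pde10a: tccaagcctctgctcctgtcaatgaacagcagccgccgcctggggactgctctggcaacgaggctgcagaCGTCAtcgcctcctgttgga

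Genes of CREB feedback were still above CON at 8 h. Of 16 on the list, 15 were tested, 10 were higher and 0 lower, with a median log2 change of 0.74. The higher genes were Crem, Sik1, Nr4a1, Nr4a3, Pde10a, Rgs2, Irs2, Pde4b, Pde4d and Pde3b. The study names part of this list and of the AP-1 list as responding to the same treatment, so their direction is not independent evidence. Of the 11 list members with a promoter entry, 72.7% held TGACG, against 33.6% of tested genes. The letters did not follow the calls. Crem, Pde10a, Rgs2, Sik1 and Nr4a1 held them and were called higher, and Pde4b and Pde4d were called higher without them. Pde8a, Nr4a2 and Dusp1 held them and were not called, and Per1 had neither. Sik1, a kinase that keeps CRTC coactivators out of the nucleus, was at 3.91 and 3.93 TPM in CON and 21.5 and 19.7 TPM after 8 h, a log2 change of 2.13 ± 0.10 (SE). Nr4a1, an orphan nuclear receptor, was at 17.3 and 18.4 TPM in CON and 52.1 and 56.2 TPM after 8 h, and its relative Nr4a3 at 0.824 and 0.738 TPM in CON and 3.97 and 3.75 TPM after 8 h.

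Several of these genes end the cAMP signal. Pde10a, a phosphodiesterase that degrades cAMP and cGMP (chr1:52360296-52544447), was at 14.6 and 12.9 TPM in CON and 40.9 and 37.0 TPM after 8 h, a log2 change of 1.44 ± 0.09 (SE). Rgs2, which speeds GTP hydrolysis by G proteins, was at 8.74 and 8.08 TPM in CON and 23.4 and 22.3 TPM after 8 h. Irs2, the adaptor of the insulin and IGF-1 receptors that CREB induces in beta cells, was at 39.2 and 36.8 TPM in CON and 91.5 and 93.0 TPM after 8 h, a log2 change of 1.26 ± 0.05 (SE). Dusp1 and Per1 were not called, at log2 changes of 0.25 and 0.52. Per1 was called with ERCC scaling (0.67), median-centring (0.65), edgeR (0.63) and DESeq2 (0.65), and without WT CON replicate 1 (0.61).

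Most AP-1 genes were not called at 8 h. Of 9 tested, 3 were higher and 0 lower. Fosl2, the gene of the Fos family member Fra-2, was at 2.05 and 1.95 TPM in CON and 13.8 and 12.8 TPM after 8 h, a log2 change of 2.26 ± 0.08 (SE). Fos was at 2.16 and 1.91 TPM in CON and 6.80 and 7.05 TPM after 8 h, and Fosb at 0.306 and 0.283 TPM in CON and 1.10 and 1.55 TPM after 8 h. Junb and Jund, which pair with Fos proteins, were not called, with log2 changes of 0.36 and 0.43.

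The study names Kdr, Osbpl6 and Plat as delayed genes, and all 3 were called higher. The study chose them as responding to cAMP in these cells, so their direction is not independent evidence. Kdr, the VEGF receptor 2 gene (chr14:34727677-34787126), was at 0.399 and 0.410 TPM in CON and 6.19 and 6.64 TPM after 8 h, a log2 change of 2.40 ± 0.09 (SE). The endothelial markers Pecam1, Vwf, Tek and Cdh5 stayed under 1 TPM in all 4 libraries, and Cdh5 was at 0 in all 4. Osbpl6, a lipid-binding protein of the oxysterol-binding family, was at 6.09 and 5.79 TPM in CON and 9.93 and 9.50 TPM after 8 h, a log2 change of 0.63 ± 0.09 (SE).

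Components of the pathway itself were mostly lower where they were called in TPM, but less so under scaling. Of 35 genes from the incretin receptors to CREB, 31 were tested, 6 were lower (19.4%) and 1 was higher (3.23%), with a median of -0.19. The shares over all genes tested were 5.99% lower and 3.61% higher. Under median-centring and under ERCC scaling 2 were lower and 1 was higher, with medians of -0.07 and -0.05. Glp1r, the receptor for Ex-4, was at 95.4 and 89.8 TPM in CON and 100.2 and 98.7 TPM after 8 h, and Gipr, the receptor for GIP, at 71.0 and 72.5 TPM in CON and 69.5 and 58.5 TPM after 8 h, and neither was called. Prkacb, a catalytic subunit of PKA, was lower, at 108 and 94.7 TPM in CON and 59.2 and 56.0 TPM after 8 h, a log2 change of -0.80 ± 0.06 (SE). The adenylyl cyclase genes Adcy1, Adcy6 and Adcy8 were lower too, with 20.7 and 19.8 TPM in CON and 12.8 and 12.4 TPM after 8 h for Adcy8 and 5.49 and 4.51 TPM in CON and 2.95 and 2.26 TPM after 8 h for Adcy1. Adcy6 was at 87.6 and 84.1 TPM in CON and 61.7 and 51.4 TPM after 8 h, a log2 change of -0.60 ± 0.06 (SE).

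Receptor genes went both ways. Grk3, a kinase that desensitises receptors, was at 42.3 and 37.0 TPM in CON and 26.8 and 23.2 TPM after 8 h, and Ffar1, the fatty acid receptor GPR40, at 124 and 104 TPM in CON and 77.6 and 69.2 TPM after 8 h. Adra2a, the Gi-coupled receptor through which adrenaline inhibits insulin secretion, was the one gene of the list that rose, at 28.9 and 25.8 TPM in CON and 47.0 and 47.3 TPM after 8 h, a log2 change of 0.77 ± 0.05 (SE). The PKA regulatory subunit gene Prkar1a and the Gs gene Gnas were not called, with log2 changes of 0.38 and 0.30. The count of lower genes was 2 with median-centring and 2 with ERCC scaling, and 3 without WT CON replicate 1 and 3 without WT 8 h Ex-4 replicate 2. Adcy6, Ffar1, Grk3 and Adcy8 had log2 changes near the threshold, at -0.60, -0.62, -0.64 and -0.64, and all 4 lost their call under both scalings. Without WT CON replicate 1 and without WT 8 h Ex-4 replicate 2, Ffar1 was at -0.50 and -0.54 and Grk3 at -0.55 and -0.54, and neither was called, nor was Adcy6.

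The insulin genes were not called. Ins1 was at 34501 and 33716 TPM in CON and 47434 and 45098 TPM after 8 h. Its log2 change was 0.44 ± 0.05 (SE), above the spread (limma adjusted p = 2.5e-07) but short of 1.5-fold. It passed 1.5-fold under ERCC scaling (0.59) and under DESeq2 with ERCC size factors (0.59). Ins2 was at 2885 and 2991 TPM in CON and 2489 and 2453 TPM after 8 h, a log2 change of -0.25 ± 0.06 (SE). The pair are near copies, so how reads were split between them is uncertain. The transcription factors of beta cell identity were lower or not called, with 3 of 14 tested lower, 0 higher and a median of -0.17. Rfx6 was at 143 and 144 TPM in CON and 80.5 and 87.2 TPM after 8 h, and its relative Rfx3, which lost its call under both scalings and without WT CON replicate 1 (-0.55), had a log2 change of -0.64. Pdx1, at 292 and 291 TPM in CON and 229.8 and 219 TPM after 8 h, and Pax6, at 443 and 432 TPM in CON and 404 and 420.2 TPM after 8 h, were not called, and the sign for Pax6 turned under both scalings.

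The machinery of granule release moved in both directions. Of 24 exocytosis genes tested, 5 were higher and 4 lower, with a median of 0.04. Ptprn, the granule protein IA-2, was at 274 and 259 TPM in CON and 533 and 516 TPM after 8 h, a log2 change of 0.98 ± 0.04 (SE). Snap25, a SNARE of the plasma membrane, was at 157 and 153 TPM in CON and 260.0 and 293 TPM after 8 h, and Rab3a, a small GTPase of secretory granules, at 179.9 and 167 TPM in CON and 272 and 286 TPM after 8 h. Syt4, a synaptotagmin that does not bind calcium through its first C2 domain, was at 35.6 and 34.1 TPM in CON and 65.8 and 67.3 TPM after 8 h.

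Cadps, a priming factor for dense-core granules (chr15:15275489-15667779), fell by 1.21 on the log2 scale, from 34.7 and 32.4 TPM to 14.2 and 13.6 TPM. Rph3al, a Rab effector, was lower at 209 and 204 TPM in CON and 136 and 124 TPM after 8 h, but not under either scaling. Syt9 and Cplx2 were the other genes called lower, and without WT CON replicate 1 the count of lower genes was 2. Under median-centring and under ERCC scaling, 7 of the exocytosis genes were higher and 1 was lower.

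Ion channel genes were lower or not called. Of 19 tested, 6 were lower and 0 higher, with a median of -0.19. Kcnn3, a calcium-activated potassium channel, was at 3.59 and 3.26 TPM in CON and 1.07 and 0.996 TPM after 8 h, a log2 change of -1.12 ± 0.10 (SE). Kcnk3, the background potassium channel TASK-1, was at 17.8 and 16.9 TPM in CON and 8.99 and 8.86 TPM after 8 h. Cacna1a, the pore of P/Q-type calcium channels, was at 47.8 and 46.2 TPM in CON and 26.4 and 25.3 TPM after 8 h, a log2 change of -0.84 ± 0.07 (SE).

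The L-type channel gene Cacna1c and the channel subunit gene Cacnb3 were nearer the threshold, with log2 changes of -0.64 and -0.65, and both lost their call under both scalings. Cacna1c was not called either without WT CON replicate 1 (-0.57) or without WT 8 h Ex-4 replicate 2 (-0.55). Ryr2, the calcium release channel of the ER, was at 2.08 and 2.25 TPM in CON and 0.872 and 0.887 TPM after 8 h. The calcium pump genes of the ER were not called and had opposite signs, 0.37 ± 0.05 (SE) for Atp2a2 and -0.43 ± 0.05 (SE) for Atp2a3. Kcnj11, the pore of the ATP-sensitive potassium channel, was at 233 and 219 TPM in CON and 204 and 191 TPM after 8 h.

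ER folding and the unfolded protein response was the list with the largest count of genes called higher. Proinsulin and the peptide precursors fold in the ER, and the unfolded protein response raises chaperones through ATF6, XBP1 and the PERK and ATF4 branch. Of 28 genes tested, 14 were higher and 0 lower, with a median of 0.57. The count was 17 with median-centring and 19 with ERCC scaling. Hspa5, the chaperone BiP (chr3:13838304-13842763), was at 1051 and 1041 TPM in CON and 2258 and 2316 TPM after 8 h, a log2 change of 1.13 ± 0.05 (SE) and a limma adjusted p of 3.6e-16. Creld2, a small secreted ER stress protein (chr7:129812789-129819636), was at 178 and 187 TPM in CON and 471 and 468 TPM after 8 h, a log2 change of 1.36 ± 0.04 (SE). In both genes the treated libraries lay well above the controls.

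Sdf2l1 and Manf, partners of BiP, were at 50.1 and 46.4 TPM in CON and 121 and 112 TPM after 8 h and at 158 and 149 TPM in CON and 309.8 and 341 TPM after 8 h respectively. Hyou1, a large HSP70-related chaperone, was at 164 and 160.4 TPM in CON and 341 and 332 TPM after 8 h. Derl3, a part of ER-associated degradation, was at 6.14 and 6.55 TPM in CON and 14.6 and 14.9 TPM after 8 h. Xbp1 was at 170.4 and 162 TPM in CON and 302 and 328 TPM after 8 h, a log2 change of 0.92 ± 0.04 (SE). Pdia3 and Hsp90b1, both highly expressed, had log2 changes of 0.52 ± 0.05 (SE) and 0.50 ± 0.05 (SE), under the fold threshold in TPM and over it under both scalings.

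The ER genes shared promoter letters. Both the list and the letters were chosen as those of the ER stress response, so a high share is not independent evidence. CCACG was found in 95.5% of the 22 with a promoter entry, against 48.6% of tested genes and 32.5% of all promoters, and CCAAT in 90.9%, against 37.8% and 37.7%. CCAAT followed 9 bases later by CCACG, the spacing of the ER stress element, was searched after the other letters had been counted. It stood in 9 of the 22 promoters (40.9%), against 0.183% of tested genes and 0.0765% of all promoters. Of these 9 genes, 6 were called higher (Hspa5, Calr, Dnajc3, Creld2, Xbp1 and Derl3), as were 7 of the 13 without the pair. Hspa5 and Creld2 are shown as 90 bases with the pair in capitals, Hspa5 from chr3:38452917-38453006 (+ strand) and Creld2 from chr7:121789183-121789272 (+ strand), both RefSeq on GRCr8 and 5′ to 3′ on the gene's strand, and in Creld2 the pair lies on the opposite strand, as CGTGG and ATTGG.
Hspa5: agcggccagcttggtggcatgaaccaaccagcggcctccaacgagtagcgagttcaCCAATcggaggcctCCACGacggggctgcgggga
Creld2: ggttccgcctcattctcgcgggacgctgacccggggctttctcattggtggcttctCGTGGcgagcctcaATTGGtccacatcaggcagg

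Genes of the ATF4 branch were called mostly higher. Of 31 tested, 10 were higher and 1 was lower, with a median of 0.32. Atf4 was at 271 and 277 TPM in CON and 418 and 442 TPM after 8 h, and Ddit3, the CHOP gene, at 45.0 and 45.9 TPM in CON and 78.8 and 74.5 TPM after 8 h. Slc7a11, the cystine transporter, was at 0.128 and 0.133 TPM in CON and 1.96 and 2.04 TPM after 8 h, and Slc3a2, the heavy chain it shares with other transporters, at 137 and 139 TPM in CON and 251 and 245 TPM after 8 h. Cebpb was at 3.90 and 5.38 TPM in CON and 14.4 and 12.6 TPM after 8 h and Trib3, a pseudokinase induced by CHOP, at 1.597 and 2.30 TPM in CON and 5.01 and 4.59 TPM after 8 h.

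The amino acid genes of the list did not all follow. Psph, the last enzyme of serine synthesis, was lower, at 129 and 133 TPM in CON and 77.4 and 81.0 TPM after 8 h, a log2 change of -0.72 ± 0.05 (SE), and was not called with ERCC scaling. Of the tRNA synthetase genes, 1 was called (Tars1, higher). Gars and Sars1 were not, with log2 changes of 0.42 ± 0.03 (SE) and 0.35 ± 0.03 (SE).

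Cholesterol genes were higher or not called at 8 h. Of 26 tested, 7 were higher and 0 lower, with 24 above 0 and a median of 0.31. Msmo1, Insig1, Idi1, Hmgcs1, Cyp51 and Stard4 were among the called genes, and the count was 10 under both scalings. Insig1, which retains SREBP in the ER when sterols are plentiful, was at 67.7 and 67.9 TPM in CON and 133 and 133 TPM after 8 h, a log2 change of 0.96 ± 0.04 (SE). Hmgcs1, an early enzyme of the mevalonate pathway, was at 80.8 and 78.6 TPM in CON and 147 and 147 TPM after 8 h, and Msmo1, a sterol demethylase, at 128 and 126 TPM in CON and 239 and 260.3 TPM after 8 h. In the 18 cholesterol promoters with an entry, CCAAT stood in 83.3% and the sterol element letters TCACCCCAC in 0, against 0.366% of tested genes and 0.495% of all promoters. The E-box CACGTG stood in 11.1%, against 9.61% and 6.65%.

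Of 16 genes tested for fatty acid synthesis, 1 was lower and 0 higher, with a median of 0.00. The lower gene, Acaca (acetyl-CoA carboxylase 1), was at 31.6 and 30.3 TPM in CON and 19.4 and 18.6 TPM after 8 h, and lost its call under both scalings. Acly, which makes cytosolic acetyl-CoA, had a log2 change of -0.24 ± 0.04 (SE), and Scd2, a desaturase, of 0.45 ± 0.05 (SE). With ERCC scaling Scd2 was called higher (0.60), and the list's median was 0.15. Of 18 genes of fatty acid oxidation, 0 were higher and 0 lower in limma, with a median of -0.27 and a range of -0.57 to 0.10, and 16 were below 0. Without WT CON replicate 2 and without WT 8 h Ex-4 replicate 1, 1 gene of the list was called lower.

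Txnip had the largest fall of the called genes that averaged 10 TPM or more. Its product binds and inhibits thioredoxin, and glucose raises it through ChREBP. Txnip (chr2:198683168-198686968) was at 329 and 312 TPM in CON and 47.3 and 45.0 TPM after 8 h, a fall of 2.77 on the log2 scale with a limma adjusted p of 1.6e-18. Of 8 tested genes of the arrestin domain family and ChREBP, 5 were lower and 0 higher, with a median of -0.77. Arrdc4, a close relative of Txnip, was at 197 and 179.8 TPM in CON and 87.9 and 81.2 TPM after 8 h, and Mlxipl, the ChREBP gene, at 293 and 272 TPM in CON and 159.7 and 151 TPM after 8 h. Arrdc3 and Klf10 were the others, with log2 changes of -0.76 and -0.78. Mlx, the partner of ChREBP, was at 183 and 182 TPM in CON and 188 and 195 TPM after 8 h and was not called.

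Glucose metabolism changed at single genes. Of 19 genes of glucose uptake and glycolysis tested, 1 was higher and 2 lower. That is 5.26% and 10.5%, against 3.61% and 5.99% of all genes tested. The median was -0.08, and it was 0.04 with median-centring and 0.07 with ERCC scaling. The count higher was 2 under both scalings. Pklr, the liver-type pyruvate kinase and a ChREBP target, was at 225 and 219.6 TPM in CON and 104 and 102 TPM after 8 h, a log2 change of -1.10 ± 0.04 (SE). Pfkfb3, which makes the activator of phosphofructokinase, was at 8.26 and 7.56 TPM in CON and 4.06 and 3.84 TPM after 8 h. Aldoa, an aldolase, was at 851 and 881 TPM in CON and 1369.8 and 1392 TPM after 8 h, a log2 change of 0.67 ± 0.05 (SE). Gapdh and Pgam1 were not called, at 0.22 and 0.27. Slc2a2, the glucose transporter GLUT2, was at 534 and 499.8 TPM in CON and 358 and 379 TPM after 8 h, short of the fold threshold.

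Around pyruvate and the TCA cycle, 2 of 29 tested genes were higher and 2 lower, with a median of 0.03. That is 6.9% each way, against 3.61% higher and 5.99% lower of all genes tested. Sucla2, a subunit of succinyl-CoA synthetase, was at 62.1 and 62.4 TPM in CON and 116 and 119 TPM after 8 h, and Got1, the cytosolic aspartate aminotransferase of the malate-aspartate shuttle, at 72.2 and 70.2 TPM in CON and 127 and 126 TPM after 8 h. Pdk2 and Pdk1, kinases that switch off pyruvate dehydrogenase, were at 56.3 and 52.3 TPM in CON and 32.3 and 32.2 TPM after 8 h and at 51.1 and 46.9 TPM in CON and 31.2 and 31.8 TPM after 8 h. Neither kinase was called with ERCC scaling, and Pdk1 was also not called with median-centring, edgeR or DESeq2, or without WT CON replicate 1 (-0.56). The count of lower genes was 0 with ERCC scaling, and 1 with median-centring and without that library. Mdh1 and Mdh2, the malate dehydrogenases, were not called, at 0.32 and 0.27.

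Of 34 cell cycle genes tested, 2 were higher, both of them D-type cyclins, and 0 lower. The higher genes were 5.88% of the list, against 3.61% of all genes tested. The list's median was -0.02, and it was 0.13 with ERCC scaling. The count higher was 3 under both scalings. Ccnd1, cyclin D1 (chr1:218090750-218100272), was at 0.50 and 0.360 TPM in CON and 4.71 and 4.69 TPM after 8 h, a log2 change of 2.00 ± 0.08 (SE). Ccnd3, at 75.2 and 70.7 TPM in CON and 114 and 113 TPM after 8 h, lost its call without WT CON replicate 2 (0.58), which left 1 higher gene on the list. Cdk4, the partner of these cyclins, and Pcna, a replication clamp, had log2 changes of -0.19 and -0.12, the latter turning sign with ERCC scaling.

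Among 18 tested genes of insulin signalling and survival, 2 were higher (11.1%) and 1 was lower (5.56%). The shares over all genes tested were 3.61% and 5.99%. Besides Irs2, the higher gene was Igf1r, the IGF-1 receptor (chr1:128924921-129207049), at 19.5 and 17.1 TPM in CON and 47.0 and 43.3 TPM after 8 h, a log2 change of 1.26 ± 0.08 (SE). Foxo3, a transcription factor that Akt keeps out of the nucleus, was at 13.2 and 11.1 TPM in CON and 6.76 and 6.95 TPM after 8 h. Without WT CON replicate 1, and without WT 8 h Ex-4 replicate 1, 2 genes were lower. Akt1 and Bax were not called, at -0.13 and -0.28.

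Clock genes changed in both directions. Of 15 tested, 7 were lower and 3 higher, with a median of -0.31. Nr1d1, the repressor REV-ERBα (chr10:86683875-86690815), fell by 2.10 on the log2 scale, from 19.1 and 17.6 TPM to 3.42 and 3.57 TPM, and its relative Nr1d2 was at 39.7 and 40.6 TPM in CON and 17.5 and 17.5 TPM after 8 h. Tef, a PAR bZIP factor, was at 35.2 and 34.3 TPM in CON and 13.6 and 11.8 TPM after 8 h, Per3 at 5.42 and 4.41 TPM in CON and 1.43 and 1.07 TPM after 8 h and Dbp at 92.3 and 99.4 TPM in CON and 56.8 and 52.7 TPM after 8 h. Nfil3, which opposes the PAR bZIP factors, was higher, at 16.6 and 15.6 TPM in CON and 28.9 and 31.6 TPM after 8 h, as were Cry2, at 46.4 and 44.5 TPM in CON and 77.2 and 75.0 TPM after 8 h, and Arntl, the BMAL1 gene, at 13.8 and 13.8 TPM in CON and 22.5 and 22.99 TPM after 8 h. A change of serum is itself known to set these genes in motion, and the single CON group does not separate it from Ex-4.

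**Figure D2:**
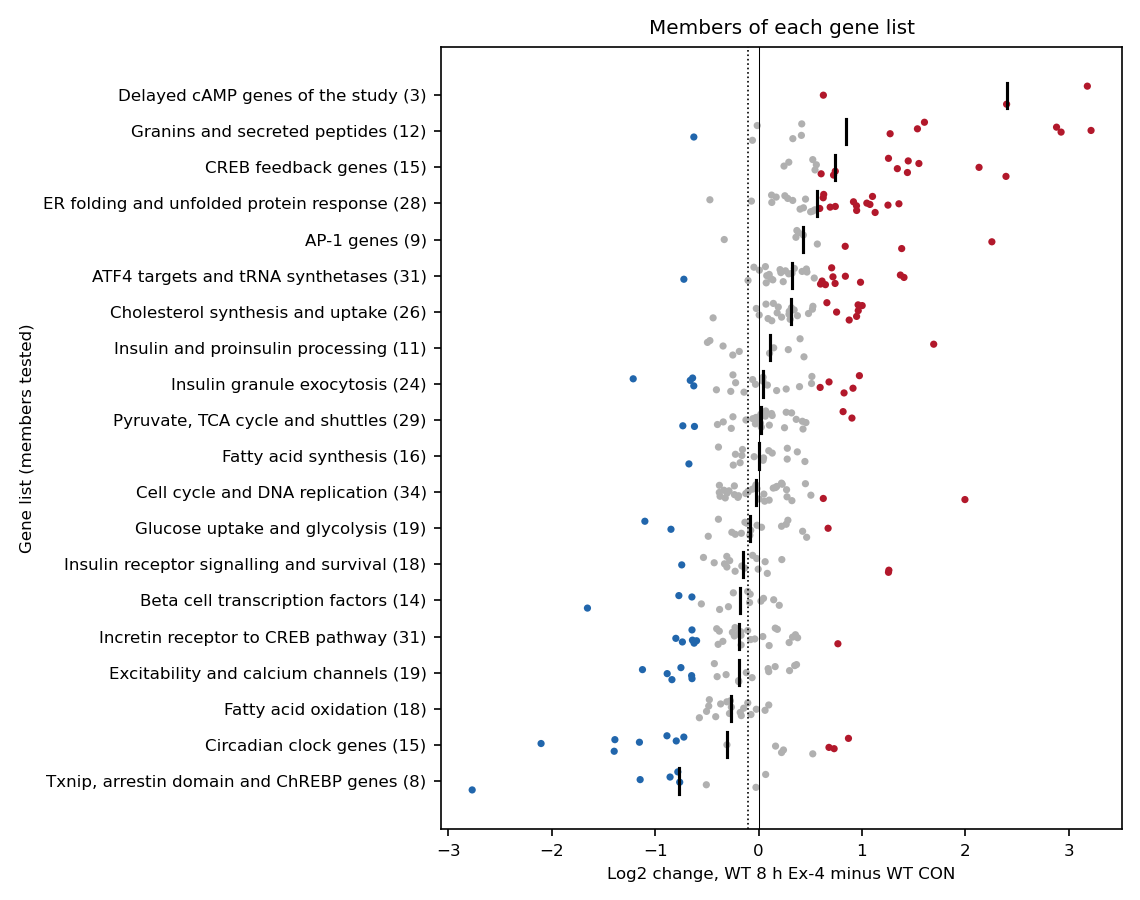
Log2 change from WT CON to WT 8 h Ex-4 of every tested member of the 20 gene lists, with red for called higher, blue for called lower, grey for not called, a black bar for the list's median and a dotted line for the median of all genes (-0.10); the number of tested members is in parentheses. The CREB feedback, peptide and ER lists lie to the right, and the clock and Txnip lists to the left.

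The other large falls were in genes of mixed function. Pgm5, a phosphoglucomutase relative without known enzyme activity (chr1:242581509-242765843), was at 83.3 and 87.5 TPM in CON and 18.5 and 16.5 TPM after 8 h, a log2 change of -2.23 ± 0.09 (SE). Adora2b, the Gs-coupled adenosine A2B receptor, was at 43.4 and 43.4 TPM in CON and 10.6 and 11.2 TPM after 8 h. Dpysl3, a protein of the neuronal cytoskeleton, was at 45.5 and 41.1 TPM in CON and 11.8 and 11.1 TPM after 8 h. In these 3 genes both treated libraries lay far below the controls, with log2 changes of -2.23, -1.90 and -1.83.

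Hspa12a, a distant member of the HSP70 family, was at 39.4 and 37.8 TPM in CON and 10.3 and 10.1 TPM after 8 h. Phkg1, the catalytic subunit of muscle phosphorylase kinase, was at 34.95 and 34.5 TPM in CON and 10.9 and 9.55 TPM after 8 h. Slc8a2, a sodium-calcium exchanger, was at 135 and 117 TPM in CON and 47.6 and 41.9 TPM after 8 h. Olfml2b, Dmrta1, Ttc25 and Tcp11l2 completed the 12 largest falls, with log2 changes of -1.55, -1.51, -1.48 and -1.46, and in all 12 the groups did not overlap.

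The 8 h libraries were then set against the 1 h libraries directly, with no CON library in the contrast. Of the genes tested, 280 (2.73%) were higher and 542 (5.27%) lower at 8 h than at 1 h, 8% together. Of the 371 genes above CON at 8 h, 214 were also higher than at 1 h and 38 were lower than at 1 h, and of the 615 below CON, 389 were lower than at 1 h and 0 higher. The same 8 h libraries enter both contrasts. Against CON, the median log2 change of the 371 genes was 0.14 after 1 h, 0.82 after 8 h and 0.59 after 16 h, and that of the 615 genes -0.12, -0.75 and -0.62. These values share the CON libraries, and the genes were chosen at 8 h.

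Among genes called against CON at 8 h that averaged 10 TPM or more, the rise from 1 to 8 h was largest for Plat, Tmem163, Fyb1 and Gcg. The less abundant Nmu differed by 2.39 ± 0.10 (SE). Gcg was at 178 and 184 TPM after 1 h, beside 165 and 169 TPM in CON, and differed by 2.20 ± 0.07 (SE) between 8 and 1 h. Tmem163, at 20.3 and 21.2 TPM after 1 h, differed by 2.35 ± 0.04 (SE). Fyb1 was at 4.67 and 4.01 TPM after 1 h, and Plat at 2.06 and 2.14 TPM. Against CON, the log2 changes at 1 h were -0.02 for Tmem163, 0.06 for Fyb1 and 0.12 for Gcg.

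Under the same limits, the largest drops from 1 to 8 h were in immediate-early genes. Fosb went from 31.8 and 36.8 TPM at 1 h to 1.10 and 1.55 TPM at 8 h, a log2 difference of -3.93 ± 0.08 (SE) with a limma adjusted p of 1.1e-21. Nr4a1 went from 532 and 632 TPM to 52.1 and 56.2 TPM, a difference of -3.40 ± 0.08 (SE). Nr4a3 and Fosl2 differed by -3.07 ± 0.11 (SE) and -3.02 ± 0.08 (SE). Junb, not called against CON at 8 h and so outside those limits, differed by -3.67 ± 0.08 (SE).

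ER genes were near CON after 1 h. Against CON, 1.75% of all genes tested were called higher and 1.12% lower after 1 h (2.87% together), and 3.53% higher and 8.28% lower after 16 h (11.8% together), from the same CON libraries. On the ER list 0 genes were called higher after 1 h and 16 after 16 h, beside 14 after 8 h, and the medians were 0.00 (1 h), 0.57 (8 h) and 0.62 (16 h). In the same order, the medians of the CREB feedback list were 2.41, 0.74 and 0.37, and for cholesterol genes -0.04, 0.31 and 1.23. Txnip was already at 80.8 and 75.4 TPM after 1 h and at 33.1 and 32.8 TPM after 16 h.

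Between 8 and 16 h, 214 genes (2.08%) rose and 359 (3.49%) fell, 5.58% together. Of the 371 genes above CON at 8 h, 12 were higher and 88 lower at 16 h than at 8 h, and of the 615 below CON, 52 were higher and 11 lower. With ERCC scaling the contrast as a whole gave 495 higher and 183 lower. Nr1d1 came back from 3.42 and 3.57 TPM to 19.2 and 21.3 TPM, a log2 difference of 2.24 ± 0.08 (SE), beside 19.1 and 17.6 TPM in CON. The cholesterol genes Msmo1 and Cyp51 went on rising, to 610.3 and 619.8 TPM and to 416 and 426 TPM, with differences of 1.299 ± 0.05 (SE) and 1.17 ± 0.05 (SE). Fdps, farnesyl diphosphate synthase, was not called against CON at 8 h and differed by 1.69 ± 0.03 (SE) between 16 and 8 h. Ak4, an adenylate kinase of mitochondria, was at 14.1 and 13.8 TPM in CON and 9.18 and 7.96 TPM after 8 h, and at 19.7 and 21.6 TPM after 16 h. Its fall at 8 h lost the call under both scalings and without WT 8 h Ex-4 replicate 2 (-0.55).

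Other genes dropped in this interval. Kdr, at 1.94 and 2.28 TPM after 1 h, fell to 0.796 and 0.820 TPM at 16 h, a difference of -2.04 ± 0.09 (SE) from 8 h, and Nmu differed by -1.75 ± 0.10 (SE). Fst went from 5.63 and 5.75 TPM to 0.835 and 0.891 TPM, a difference of -1.84 ± 0.09 (SE). Car2, carbonic anhydrase 2, was above CON at 8 h (24.2 and 21.9 TPM in CON and 38.5 and 39.6 TPM after 8 h) and below it at 16 h (11.9 and 11.6 TPM), a difference of -1.65 ± 0.06 (SE) between 16 and 8 h. Crem and Gprc5a differed by -1.62 ± 0.08 (SE) and -1.53 ± 0.09 (SE). Osbpl6 was at 6.14 and 6.54 TPM after 16 h.

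**Figure D3:**
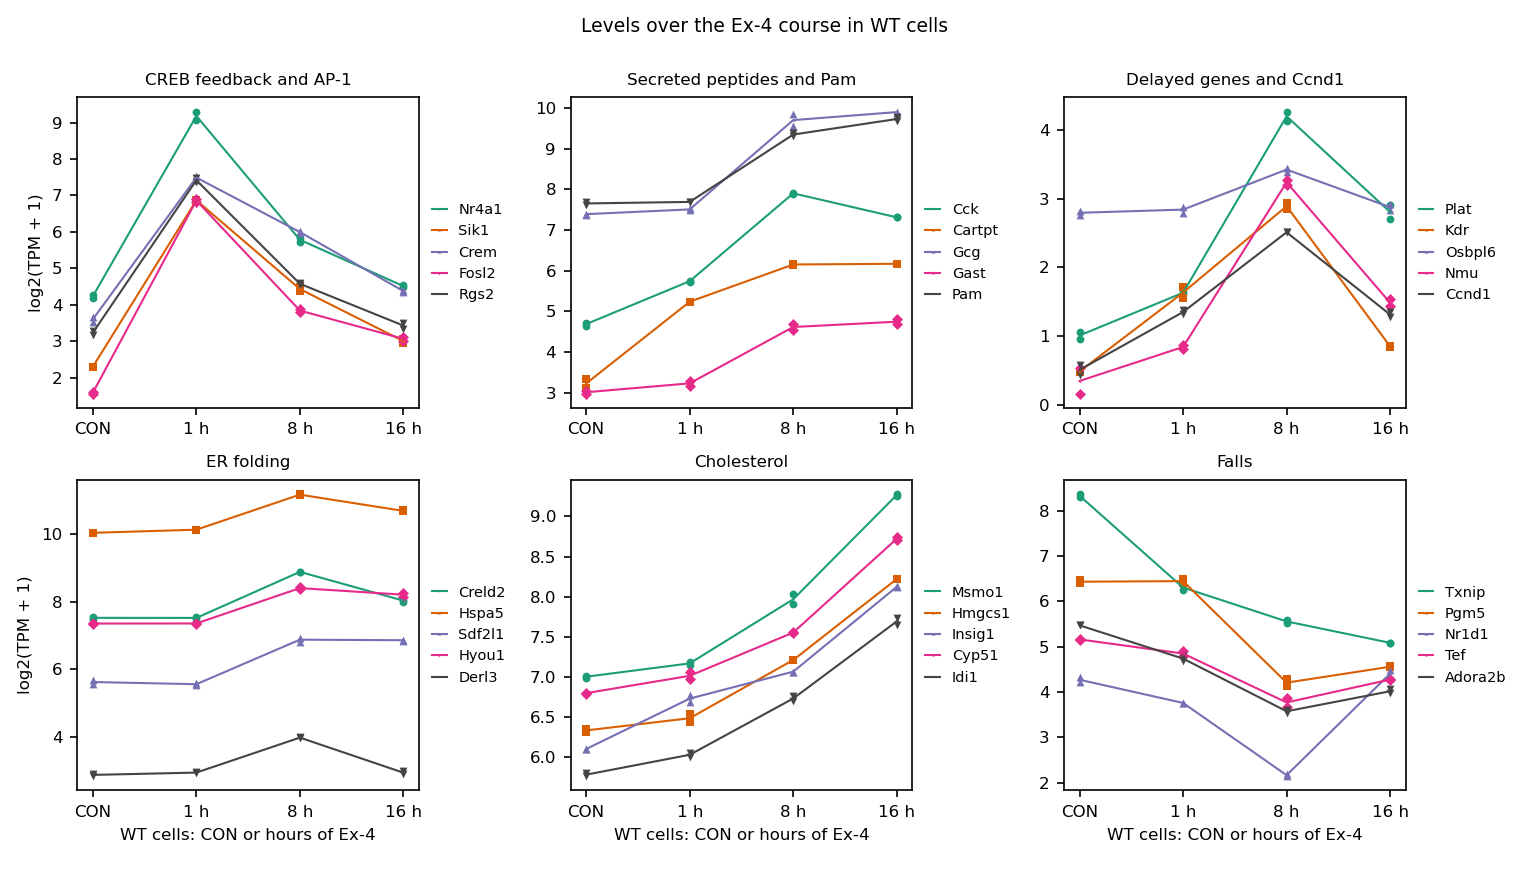
Levels as log2(TPM + 1) in WT CON and after 1, 8 and 16 h of Ex-4 for 30 genes in 6 panels, with symbols for single libraries and lines through the mean of 2; the horizontal spacing is not to time. Nr4a1, Sik1, Crem, Fosl2 and Rgs2 peak at 1 h, Plat, Kdr, Osbpl6, Nmu and Ccnd1 at 8 h, and the 5 cholesterol genes are highest at 16 h.

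The 8 h response was last compared with that of Med14 S983A cells, as the difference between the 2 responses. This is the question the study asks of Med14. The Med14 S983A lines were grown from single sorted cells, so the substitution and other differences between the lines cannot be told apart here. Without treatment, Ins2 averaged 2938 TPM in WT and 35068 TPM in Med14 S983A cells, and Gcg 167 and 6.32 TPM. Med14 itself (chrX:10964035-11080894), whose level does not check a substitution of 1 amino acid, was at 21.5 and 20.3 TPM in CON and 23.1 and 24.96 TPM after 8 h in WT cells, and at 19.6 and 20.3 TPM and 25.5 and 25.4 TPM in the same conditions of Med14 S983A cells. The response differed for 285 genes (2.77%), of which 203 (1.98%) had a higher and 82 (0.798%) a lower change in Med14 S983A cells. Within Med14 S983A cells, 3.21% of genes were higher and 3.09% lower after 8 h of Ex-4, 6.3% together. Of the 371 genes that rose in WT cells, 60 had a lower and 19 a higher response in Med14 S983A cells, and of the 615 that fell, 114 had a higher response and 0 a lower one. The same WT libraries define both the lists and the difference. The split of the 285 moved with scaling, to 128 higher and 120 lower with median-centring and 122 and 137 with ERCC scaling.

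Some of these genes were nearly silent in the Med14 S983A lines without treatment. Of the 60 genes, 25, and of the 114, 26, were under 1 TPM in both Med14 S983A CON libraries, a level at which the log2(TPM + 1) scale understates any change. With a pseudocount of 0.1 TPM, 53 of the 60 and 103 of the 114 were still called in the same direction, and of the genes under 1 TPM 18 of the 25 and 18 of the 26. Pgm5 is such a gene, at 0.377 and 0.223 TPM in Med14 S983A CON beside 83.3 and 87.5 TPM in WT CON. Its responses differed by 1.98 ± 0.12 (SE), but edgeR and DESeq2 on recovered fragments did not call it, with differences of 0.58 and 0.56. Ccdc184, at 0.0520 and 0.0770 TPM in Med14 S983A CON and 10.3 and 11.8 TPM in WT CON, differed by -1.19 ± 0.14 (SE), and by -0.19 in edgeR, which did not call it either.

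Of the delayed genes, Plat and Kdr had the smaller response in Med14 S983A cells. Plat was at 0.0580 and 0.0150 TPM and 0.116 and 0.182 TPM in Med14 S983A CON and 8 h cells, against 0.955 and 1.08 TPM and 16.4 and 18.2 TPM in WT, and the responses differed by -3.03 ± 0.13 (SE). DESeq2 called the difference too, at -2.07, but edgeR (adjusted p = 0.17) and DESeq2 with ERCC size factors (adjusted p = 0.087) did not. Kdr was at 0.0810 and 0.0430 TPM and 0.119 and 0.246 TPM in those cells, and its difference of -2.25 ± 0.12 (SE) was called by limma, edgeR and DESeq2. Osbpl6, at 4.41 and 4.19 TPM and 5.39 and 4.88 TPM, differed by -0.42 ± 0.13 (SE), which was short of the fold threshold. Nmu differed by -2.92 ± 0.15 (SE) and Gprc5a by -1.88 ± 0.13 (SE) in limma, but neither was called by edgeR or DESeq2.

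Other differences were in genes detected in all 4 groups. Cebpd, a C/EBP transcription factor, was at 7.62 and 6.70 TPM in CON and 30.7 and 30.8 TPM after 8 h in WT cells and at 7.48 and 7.98 TPM and 11.1 and 10.1 TPM in Med14 S983A cells, a difference of -1.55 ± 0.11 (SE) with a limma adjusted p of 2.7e-10. Hspa12a, at 5.56 and 5.09 TPM and 3.85 and 3.99 TPM, differed by 1.46 ± 0.09 (SE). Psph fell in WT cells but went from 53.7 and 51.6 TPM to 82.5 and 82.7 TPM in Med14 S983A cells, a difference of 1.36 ± 0.07 (SE). Id2, an inhibitor of bHLH factors, was at 15.5 and 16.4 TPM in CON and 6.48 and 5.15 TPM after 8 h in WT cells and at 3.72 and 5.46 TPM and 5.17 and 3.68 TPM in Med14 S983A cells, a difference of 1.28 ± 0.20 (SE). Hspa12a, Psph and Id2 were lower in both Med14 S983A CON libraries than in both WT CON libraries.

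Several of the leading responses were also present in Med14 S983A cells, some of them smaller, and some other responses were larger there. Mest changed by 3.01 in WT and 3.09 in Med14 S983A cells, a difference of 0.07 ± 0.08 (SE), and Crem by 2.39 and 2.68, a difference of 0.29 ± 0.12 (SE). Cck changed by 3.22 and 2.10, and the difference of -1.12 ± 0.07 (SE) was called. Cartpt (-0.74), Sv2c (-0.78), Tmem163 (-0.82) and Fst (-1.12) also rose less in Med14 S983A cells, by called differences. Stc1 and Fyb1 had no called difference. Txnip fell by 2.77 in WT and 1.96 in Med14 S983A cells, and the difference of 0.81 ± 0.12 (SE) was called. Besides Pgm5 and Hspa12a, the large falls of Dpysl3, Ttc25 and Slc8a2 had called differences too. The falls of Nr1d1, Adora2b, Phkg1, Olfml2b, Dmrta1 and Tcp11l2 did not. CON levels in WT and Med14 S983A cells averaged 43.3 and 9.3 TPM for Dpysl3, 32.3 and 6.7 TPM for Ttc25 and 126 and 18.3 TPM for Slc8a2. For Txnip they averaged 321 and 54.4 TPM. Whether these lower starting levels had a part in the smaller falls was not tested. Gcg changed by 2.31 and 2.49, though from 6.09 and 6.55 TPM in Med14 S983A CON. The ER list had medians of 0.57 and 0.60, with 0 members called higher and 2 lower in the difference. The ATF4 list had medians of 0.32 and 0.70, with 6 members called higher and 0 lower in the difference. For CREB feedback genes the medians were 0.74 and 1.01, with 2 called higher and 0 lower. Nr4a1 of that list changed by 1.55 in WT and 2.34 in Med14 S983A cells, a called difference of 0.79 ± 0.12 (SE).

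**Figure D4:**
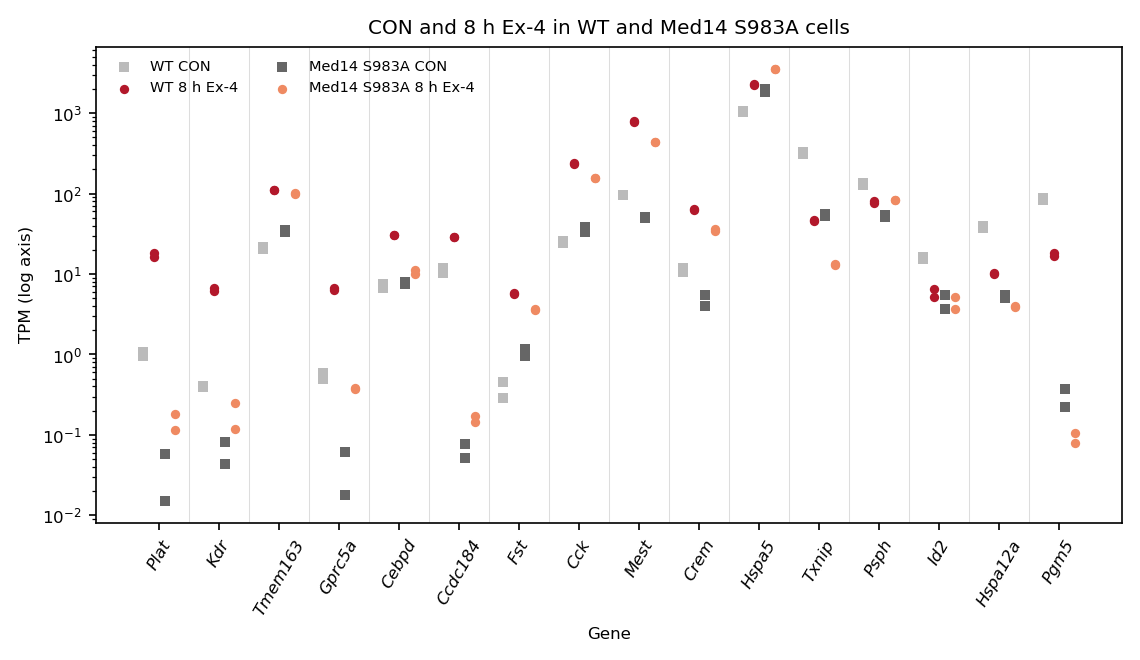
TPM on a log axis in the 2 libraries each of WT CON, WT 8 h Ex-4, Med14 S983A CON and Med14 S983A 8 h Ex-4 for 16 genes. Plat, Kdr, Gprc5a, Ccdc184 and Pgm5 are below 1 TPM in Med14 S983A CON, while Mest, Crem, Cck, Hspa5 and Txnip shift in the same direction in both genotypes. The shifts of Cck and Txnip were smaller in Med14 S983A cells, by called differences.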

How the data were processed

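The deposited tables of paired-end, strand-specific RNA-seq from INS-1 cells were used, with groups taken from the sample titles. According to the submitters' processing notes and the study's methods, the authors aligned reads to rn6 and ERCC sequences (STAR 2.5.3a) and deposited TPM per transcript from HOMER 4.11.1 without spike-in scaling, beside the transcript length, and the table of raw counts they deposited covers just the 92 ERCC spike-ins. Their own tests used DESeq2 1.24.0 with ERCC size factors. The spike-in went into equal masses of RNA, so ERCC scaling compares RNA per mass and says nothing of RNA per cell.

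From 19223 transcripts and spike-ins, 1 per symbol was kept, by mean TPM over all libraries (1676 dropped). The study's method needs gene counts, so log2(TPM + 1) was fitted with limma 3.58.1 (eBayes with trend, R 4.3.3) over all 28 libraries, with 14 group means and 14 residual degrees of freedom, two-sided, with Benjamini-Hochberg adjustment over 10275 genes. Fold changes are on that scale and understate those of low genes. Fragments were recovered from TPM, length and the ERCC counts. Within 0.05 reads plus the rounding error of the TPM values, 100% of 60686 values were whole, against 16.4% by chance. The fragments were tested with edgeR 4.0.16, which called 544 genes higher and 609 lower at 8 h, and with DESeq2 1.42.0. Replicates differed beyond counting noise, by chi-square over degrees of freedom (4.62 in CON, 6.64 at 8 h). On simulated data for the 8 h contrast (200 of 10261 genes changed), limma recovered 98% of 2-fold and 100% of 3-fold changes and made 0 wrong calls. The simulation changed as many genes up as down, and fewer than were called here. It therefore does not bear on how scaling moved the split.

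The alternatives tried were a pseudocount of 0.1 TPM, all 14852 genes with a value above 0, the 8833 genes that averaged 5 TPM or more, median-centring, ERCC scaling, the contrast's libraries alone, a replicate block, leaving out each library, and no fold minimum.

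The comparison, gene lists and letters searched were chosen with earlier results of these data known. The 20 lists are described by counts and medians, without a test of the list. Genes were named by rule: the 12 largest rises and 12 largest falls that averaged 10 TPM or more, up to 6 called and 2 abundant uncalled members of each list, the 4 largest differences each way in the other contrasts, and Kdr, Osbpl6, Plat, Ins1, Ins2, Med14, Fos and Txnip. Glp1r, Gipr, Xbp1, Atf4, Scg2, Slc2a2, Kcnj11, Adcy6, Dbp, Cry2 and Arntl were added after their values were seen. Promoter sequences are from RefSeq (GRCr8), matched by symbol, with the first entry used where a symbol had several. Some results are not reported here. Gene coordinates are those of the TPM table (rn6).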

Additional observations from a re-analysis of the deposited data

Results flagged for a closer look

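These results are listed because the effect at 8 h differed from that at another time or in the other genotype by a direct test, limma with Benjamini-Hochberg adjustment. No explanation was weighed. Groups of 2 libraries are too small for a test of outlying samples.

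Between 8 and 1 h of Ex-4 in WT cells, 822 genes differed. In each contrast the genes named here are taken from those that also differed from CON at 8 h and averaged 10 TPM or more, so that less abundant genes such as Nmu and Kdr and genes not called at 8 h are not ranked. The largest log2 differences, 8 h minus 1 h, were positive for Plat (2.56), Tmem163 (2.35), Fyb1 (2.25) and Gcg (2.20), and negative for Fosb (-3.93), Nr4a1 (-3.40), Nr4a3 (-3.07) and Fosl2 (-3.02).

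Between 16 and 8 h, 573 genes differed. Under the same limits, the largest log2 differences, 16 h minus 8 h, were positive for Nr1d1 (2.24), Msmo1 (1.299), Ak4 (1.18) and Cyp51 (1.17), and negative for Fst (-1.84), Car2 (-1.65), Crem (-1.62) and Gprc5a (-1.53).

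The 8 h response differed between Med14 S983A and WT cells for 285 genes. As Med14 S983A response minus WT response, and under the same limits, the largest log2 differences were positive for Pgm5 (1.98), Hspa12a (1.46), Psph (1.36) and Id2 (1.28), and negative for Plat (-3.03), Gprc5a (-1.88), Cebpd (-1.55) and Ccdc184 (-1.19). Pgm5, Plat, Gprc5a and Ccdc184 were under 1 TPM in both Med14 S983A CON libraries, and edgeR on recovered fragments called none of these 4, at adjusted p-values of 0.46, 0.17, 0.71 and 0.93.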

How the results depend on the processing

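Of 143 named genes, 105 were called at 8 h, and 92 of these kept direction and call under every alternative run for them (up to 14), while 13 lost the call under some and none changed sign. Without a single library, 7 lost it. Of the 38 not called, 7 were called under some alternative. Counts of called genes that moved by over 1.5 times are given as higher or lower. In the 8 h contrast (371 and 615), 572 were higher with DESeq2 and 652 with DESeq2 and ERCC size factors, 373 were lower with median-centring and 348 with ERCC scaling, and with no fold minimum there were 1789 and 4293. For 8 against 1 h (280 and 542), ERCC scaling gave 512 and 352, DESeq2 423 higher, DESeq2 with ERCC size factors 682 higher, and no fold minimum 2376 and 3019. For 16 against 8 h (214 and 359), ERCC scaling gave 495 and 183, edgeR 430 higher, DESeq2 431 higher, DESeq2 with ERCC size factors 670 higher, and no fold minimum 1940 and 3373. For the genotype difference (203 and 82), median-centring gave 128 higher, ERCC scaling 122 and 137, DESeq2 with ERCC size factors 120 higher, the filter at 5 TPM 53 lower, edgeR 124 lower, and no fold minimum 1456 and 454. The cause of these shifts was not tested. Leaving out each library in turn gave 347 to 389 higher and 575 to 720 lower at 8 h.

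The changes of 7 genes, none of them called, switched sign, as log2 changes. Median-centring gave 0.0350 for Pax6, 0.0628 for Chga, 0.1003 for Hadh and 0.0966 for Arrdc1. ERCC scaling gave 0.0642 for Pax6, 0.0923 for Chga, 0.130 for Hadh, 0.00711 for Hadha, 0.124 for Arrdc1, 0.0175 for Akt1 and 0.0275 for Pcna. DESeq2 gave 0.0178 for Pax6, 0.0456 for Chga, 0.0841 for Hadh and 0.0793 for Arrdc1. DESeq2 with ERCC size factors gave 0.0644 for Pax6, 0.0907 for Chga, 0.132 for Hadh, 0.00665 for Hadha, 0.124 for Arrdc1, 0.0161 for Akt1 and 0.0276 for Pcna. The edgeR fit gave 0.0256 for Chga, 0.0640 for Hadh and 0.0593 for Arrdc1. Leaving out 1 library at a time gave -0.0784 to 0.0350 for Hadh. Leaving out 1 library at a time gave -0.0553 to 0.00459 for Arrdc1.

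No pairing by replicate number was seen between the CON and 8 h libraries. The deviations of same-numbered CON and 8 h libraries correlated with r = 0.02. Over all 91 pairs of groups r ran from -0.28 to 0.28, and a batch shared by some groups was not tested. The replicate block gave 371 higher and 615 lower, the same as without it, and changed no other count by more than 1 gene.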
